A study of Rattus norvegicus with 4 samples.

Results

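Of the 7861 cells recovered from dispersed rat anterior pituitaries, 78 were leukocytes that lacked the complement component C1q, a share of 0.992% (exact 95% binomial interval 0.785% to 1.24%). The cells were chosen by measured UMI counts of 11 genes. A cell was taken as a leukocyte when it held at least 3 UMIs (unique molecular identifiers, each counting 1 captured transcript) in the sum of Cd53, Tyrobp, Fcer1g and Laptm5, with at least 2 of these 4 genes detected. Cells were kept when growth hormone (Gh1) took less than 5% of their UMIs, prolactin (Prl) and proopiomelanocortin (Pomc) less than 2% each, and the glycoprotein hormone alpha subunit (Cga) less than 1%. Of the 619 leukocytes chosen in this way, the 78 with fewer than 5 UMIs in the sum of C1qa, C1qb and C1qc are described here, and the other 541 are called macrophages with C1q.

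C1q is the recognition molecule that starts the classical complement pathway, and resident tissue macrophages are a main source of it. Blood-derived leukocytes such as lymphocytes, monocytes and dendritic cells generally make little or none. Natural killer (NK) cells and cytotoxic T cells kill target cells with perforin and granzymes, dendritic cells take up antigen and present it to T cells on MHC class II molecules, and monocytes circulate in blood and can become macrophages in tissue.

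The animals were Sprague Dawley rats that received no treatment named in the sources used here. Females were taken on postnatal day 44 in diestrus and males on postnatal day 59. For each sex, 4 anterior pituitaries were pooled, dispersed with trypsin and EDTA, and loaded on 2 lanes of a 10X Genomics 3′ single-cell instrument, so the lanes are technical replicates of 1 pool. Sex, pool and age cannot be told apart, and no p-value below measures the spread between animals. The tissue was washed before dispersion and perfusion of the animals is not mentioned, so leukocytes of the tissue and of its vessels cannot be told apart.

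The female lanes held 1868 and 1861 cells with 18955509 and 20312999 UMIs. The male lanes held 2047 and 2085 cells with 23425817 and 24048021 UMIs. In that order, 25, 13, 22 and 18 leukocytes without C1q were found, which is 1.34%, 0.699%, 1.07% and 0.863% of the cells of each lane. The lanes of the sexes overlapped. The shares were 1.02% (0.722% to 1.40%) of 3729 female cells and 0.968% (0.692% to 1.32%) of 4132 male cells, and these intervals, which cover counting error only, overlapped widely. Macrophages with C1q numbered 121, 134, 152 and 134 in the same lanes.

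Few cells lay near the limit on C1q. Among the 78 cells, 71 had no C1q UMI, 5 had 1 and 2 had 3. Just outside the limit stood 1 cell with 5 C1q UMIs and 1 with 9, and the median of the macrophages was 77.0. The 4 leukocyte genes summed to a median of 41.0 UMIs per cell, with 1 cell at 4, 3 cells at 5 and 3 cells at 6, while 7 cells with 2 UMIs in 2 of the genes stayed outside. These values chose the cells and are given as a description. The median depth was 6142 UMIs, with 1872 genes detected, against 6573 UMIs and 1890 genes in the macrophages, and mitochondrial transcripts took a median of 2.92% against 2.74%.

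**Figure D1:**
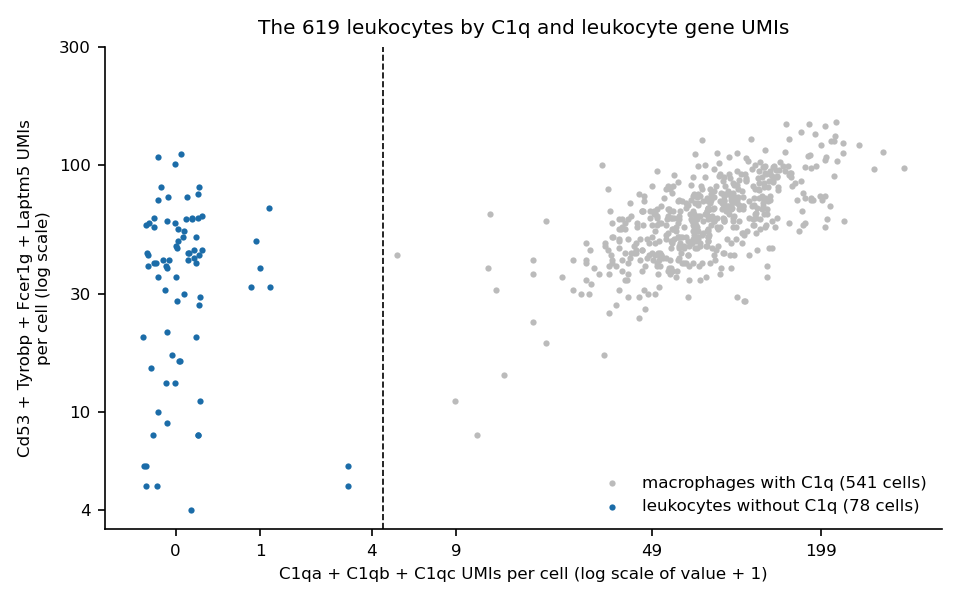
Each point is 1 of the 619 leukocytes, with its UMIs in C1qa, C1qb and C1qc on the x axis (log scale of the value plus 1, points spread sideways within a value) and its UMIs in the 4 leukocyte genes on the y axis (log scale). The dashed line is the C1q limit: 71 of the 78 cells left of it stand at 0 UMIs, and the macrophages on its right have a median of 77.0.

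The given markers were found in nearly all of these cells: Cd53, a leukocyte tetraspanin, in 73 of 78 and Laptm5, a lysosomal protein of blood cells, in 75 of 78. Both genes were part of the rule. Leukocyte genes outside the rule were also found, with Coro1a, an actin regulator of leukocytes, in 75 of 78, Arhgdib in 76 of 78 and Ptprc, the leukocyte common antigen CD45, in 65 of 78. Of the 13 listed leukocyte genes outside the rule, the sparsest were Cd52, Ikzf1 and Itgb2, found in 3, 26 and 37 of 78. In the pituitary cells outside both leukocyte classes, Ptprc was found in 0.304% of cells. Growth hormone transcripts were found in all 78 cells at a mean of 2335 counts per 1000000 (CPM) of the lane sums, in all 541 macrophages at 2837 CPM, and in the other pituitary cells at 109291 CPM. Its source in the leukocytes was not tested. Scrublet, a doublet caller, marked 134 of the 7861 cells (1.70%), 8 of them macrophages with C1q and none of them among the 78. Cells with 2 or more UMIs in each of at least 2 of 4 markers of red blood, endothelial, folliculostellate or hormone-producing cells numbered 6 of the 78 (7.69%). No barcode of these cells was shared with another lane, although 30 barcodes were found in more than 1 lane over all cells.

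The 78 cells were not of 1 kind. Clustering separated them into 6 groups of 27, 18, 12, 11, 7 and 3 cells. Marker genes placed 5 of them with known blood cell types: NK cell-like, monocyte-like, T cell-like, conventional dendritic cell-like and plasmacytoid dendritic cell-like cells. The sixth carried endothelial and globin genes and is left unnamed. Because the clusters were drawn from these same genes, the values of the next paragraphs are descriptions and carry no test. The number of clusters depended on the settings: 3 at a lower resolution, where none of the 6 groups was divided, and 8 at a higher one, where the NK cell-like cells were spread over 4 clusters with 12 of 27 in the largest. With each cell thinned to 1000 UMIs there were 5 clusters. Of these groups, 23 of 27 NK cell-like, 14 of 18 monocyte-like and only 2 of 7 plasmacytoid dendritic cell-like cells stayed together. The T cell-like and conventional dendritic cell-like groups were not divided in any of these settings, but an undivided group may have been merged with another. The adjusted Rand index, which is 1 for an identical grouping, was 0.537 at the lower resolution, 0.733 at the higher one and 0.602 with thinning.

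**Figure D2:**
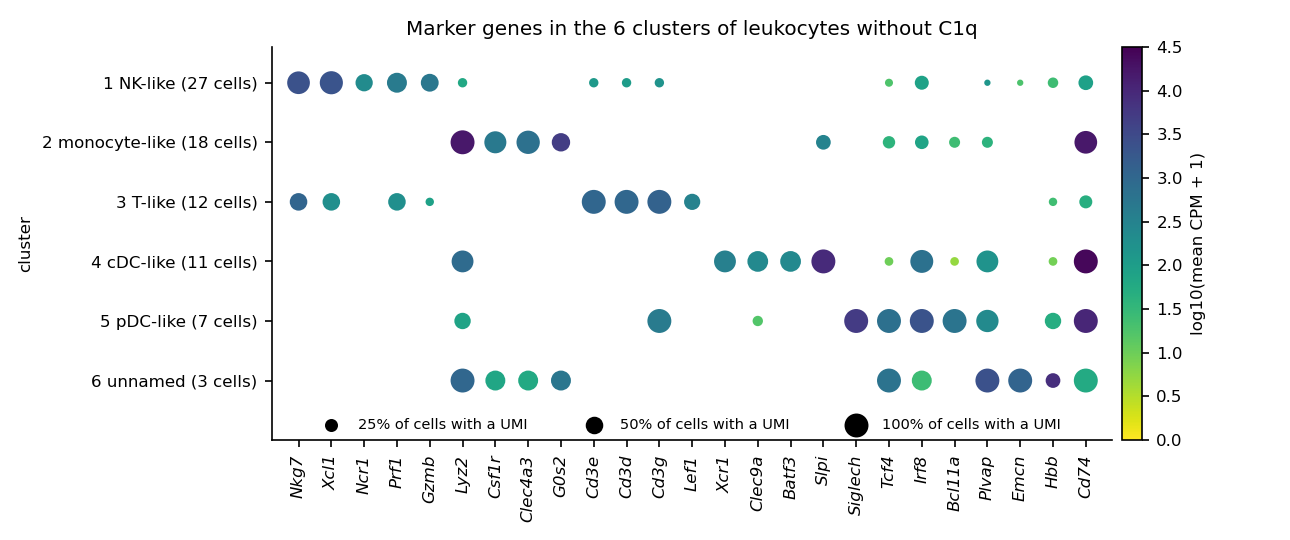
Rows are the 6 clusters with their numbers of cells and columns are marker genes. The area of a dot gives the percent of the cluster's cells with at least 1 UMI and its colour the mean level as log10(CPM + 1). Xcl1 marks the NK cell-like row (25 of 27 cells), Cd3e the T cell-like row (12 of 12), Xcr1 the conventional dendritic cell-like row (9 of 11) and Siglech the plasmacytoid dendritic cell-like row (7 of 7).

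The largest cluster, with 27 cells, was NK cell-like. Of the 19 genes listed for NK cells and innate lymphoid cells, 18 were detected in it, and 17 in at least 20% of its cells. The cluster was not uniform: 1 or more of its cells had no UMI in this list, its highest cell had 5717 CPM of endothelial genes and its highest for folliculostellate genes 5200 CPM, and the part of mixed droplets in it was not tested. Nkg7, a granule protein of killer cells, was found in 24 of 27 cells at a mean of 2313 CPM. Prf1, which encodes perforin, was found in 18 of 27 cells, Gzmb in 14 and Gzma in 10, both encoding granzymes. The activating receptor Ncr1 (NKp46) was found in 13 of 27 cells and in none of the other clusters, and the transcription factor T-bet (Tbx21) in 16. The chemokine Xcl1 was found in 25 of 27 cells at 2153 CPM, against a mean of 43.5 CPM over the other leukocytes without C1q, where 6 T cell-like cells held it. The 10 leading genes were Mcpt9, Cd24, Xcl1, Gzma, Ncr1, Gzmb, Zfp683, Ncr3, Cd160 and Mcpt8l3. Mcpt9 and Mcpt8l3 belong to the mast cell protease family, but of the list for mast cells and basophils the defining genes Cpa3, Ms4a2 and Fcer1a were at 0 in all 78 cells. The 3 CD3 chains Cd3e, Cd3d and Cd3g were each found in 3 of the 27 cells, so the cluster was not free of T cell genes. A further gene was picked after its values were seen: Cck, which encodes the peptide cholecystokinin, was found in 11 of 27 cells at 113 CPM, in none of the other 5 clusters, in none of the 541 macrophages and in 0.193% of the other pituitary cells.

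T cell-like cells formed a cluster of 12. All 3 CD3 chains were found in 12 of 12 cells, Cd3e at a mean of 1096 CPM, Cd3d at 1047 CPM and Cd3g at 1265 CPM. Cd2 was found in 12 of 12 cells, the T cell receptor kinase Lck in 11, and the signalling adaptor Lat in 9. The coreceptor genes were sparser, with Cd8a in 6 cells and Cd4 in 2. Cd8a was not bound to this cluster: it was found in 27 of the 78 cells and stood at 296 CPM in the monocyte-like cluster. The leading genes were Lef1, Sit1, Ms4a6c, Cd40lg, Rab3ip, Icos, Cd3d, S1pr1, Cd3e and Gimap4. Lef1 and S1pr1, which encode a transcription factor of early T cells and the receptor that lets lymphocytes leave lymph nodes, were found in 5 and 3 cells, and the costimulator Icos in 5. Cytotoxic genes were present in part of the cluster: Nkg7 and Prf1 in 6 of 12 cells each and Ctsw in 9. The lymph node homing receptor Ccr7 was found in 4 of 12 cells. Across all 7861 cells, 15 held at least 2 of the 3 CD3 chains, and every one of them was among the 78.

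Monocyte-like cells numbered 18. Lyz2, which encodes lysozyme, was found in 18 of 18 cells at 15950 CPM, against a lane mean of 16270 CPM in macrophages with C1q. Csf1r, the receptor for macrophage colony-stimulating factor, was found in 15 of 18 cells at 470.3 CPM, against 684 CPM in the macrophages. The lectins Clec4a3 and Clec4a1 were found in 17 and 15 cells, and the Fc receptor gene Fcgr1a in 14. These 3 genes were also found in 91.7%, 84.5% and 87.2% of the macrophages. Of 18 genes listed for monocytes, 14 were detected in this cluster, 10 of them in at least 20% of its cells, while F13a1 and Ace were at 0. Of 19 genes listed for macrophages, 12 were detected in it. The leading genes were G0s2, Clec4a3, Fxyd2, Fcnb, Cxcl2, Csf1r, Lyz2, Clec4a1, Nfkbiz and Lilrb4. G0s2 and Fcnb (ficolin) also stand on the list for neutrophils, of which 11 of 18 genes, S100a8, S100a9, Cxcr2 and Mpo among them, were at 0 in all 78 cells. The inflammatory cytokine Il1b was found in 13 of 18 cells at 6032 CPM and the chemokines Ccl3 and Cxcl2 in 13 and 8. The 23 listed immediate early and dissociation genes summed to 20161 CPM in this cluster and 16642 CPM in the macrophages. In the other named clusters they summed to between 5954 CPM (T cell-like) and 11579 CPM (plasmacytoid dendritic cell-like). The part of cell handling in these values was not tested. Fcgr3a (CD16) was found in 4 of 18 cells at 109.7 CPM.

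Conventional dendritic cell-like cells numbered 11 and carried the genes of the type that presents antigen of dead cells to CD8 T cells. Xcr1, the chemokine receptor for Xcl1, was found in 9 of 11 cells at 367 CPM, and Clec9a and Batf3, a receptor for dead cells and the transcription factor this type needs, in 8 each. Xcr1 was found in no other member cell and in 1 macrophage. Flt3, the receptor for the growth factor that dendritic cells depend on, was found in 6 of 11 cells and Irf8 in 10. The leading gene was Slpi, a secreted protease inhibitor, found in 11 of 11 cells at 9380 CPM and in 6 of 18 monocyte-like cells at 310.3 CPM. It was followed by Xcr1, Tubb2b, Batf3, Clec9a, Gcsam, Rab7b, Cst3, Ms4a6a and LOC102554202. Cst3 (cystatin C) stood at 30000 CPM, against 981 CPM over the other leukocytes without C1q. The invariant chain Cd74 was found in 11 of 11 cells at 26382 CPM.

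The 7 plasmacytoid dendritic cell-like cells rest on few leading markers: 6 of the 8 genes listed for this type were detected, and Siglech was the only one among the 10 leading genes. Siglech, the sialic acid-binding receptor that marks this type in rodents, was found in 7 of 7 cells at 5308 CPM and in no other member cell. Tcf4, Irf7 and Bst2 were also found in 7 of 7 cells, Tcf4 at 721 CPM, and Irf8 in 7 of 7 at 2249 CPM. These genes were not bound to this cluster. Bst2 was found in 99.1% of the macrophages, Irf8 in 54.9%, Irf7 in 41.4% and Tcf4 in a smaller share. The other leading genes were LOC680329, Blnk, Bcl11a, Faim3, Gapt, Pygm, Cyb561a3, Rnase6 and LOC102548758. Blnk and Bcl11a are shared with B cells, and Blnk was found in 360 of the 541 macrophages and Bcl11a in 6. Of 12 B cell genes in the table, 4 were detected in these cells, Fcrla in 4 of 7 at 267 CPM, Cd22 in 2 and Ms4a1 and Bank1 in 1 each, while Cd79a, Cd79b and Pax5 were at 0 in all 78 cells. Cd3g was found in 7 of 7 of these cells at 445 CPM, while Cd3e and Cd3d were at 0. Kdr, a receptor for vascular endothelial growth factor that otherwise marks endothelial cells, was likewise found in 7 of 7 cells at 568 CPM, and Plvap in 6 of 7 at 233 CPM. Of the other 8 endothelial genes, Pecam1, Cdh5 and Tie1 were found in 1 cell each, and Emcn, Clec14a, Aplnr, Flt1 and Egfl7 were at 0 in these cells. Plvap was found in 9 of 11 conventional dendritic cell-like cells as well, and in 3.33% of the macrophages.

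The 3 cells of the unnamed cluster all came from the female lane with 1861 cells. Their median of 22485 UMIs was above that of every named cluster, of which the conventional dendritic cell-like one was the deepest at 10142 UMIs. All 10 endothelial genes were found in them, with Plvap at 2460 CPM and Emcn at 1162 CPM, together with Cd53 in 2 of 3 cells and Laptm5 in 3 of 3. The 13 leukocyte genes outside the rule summed to 1724 CPM in these cells, the lowest of the 6 clusters, against 6175 to 9019 CPM in the 5 named ones. Platelet genes summed to 796 CPM, and hemoglobin (Hbb) was found in 1 cell. The endothelial list consequently summed to 3969 CPM in the leukocytes without C1q of that lane, against 144 CPM in the other female lane and 550.1 and 87.0 CPM in the male lanes, and red blood cell genes summed to 6889 CPM against 31.4, 27.2 and 39.6 CPM. The part of mixed droplets in this cluster was not tested.

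Several blood cell types were not detected. No cell of the 7861 held at least 2 of 4 B cell genes, Cd79a, Cd79b and Ms4a1 among them, and none held 2 of the mast cell and basophil genes Cpa3, Ms4a2, Tpsb2 and Mcpt8 or 2 of the eosinophil genes Epx, Prg2 and Ccr3. Of the neutrophil genes S100a8, S100a9, Csf3r and Cxcr2, 2 or more were found in 1 macrophage and in none of the 78 cells. Single genes of the B cell list were present: Fcrla was found in 13 of the 78 cells, Ebf1 in 6, Blk in 5 and Cd22 in 4.

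Every named cluster was found in both sexes, and 4 of the 5 in every lane. NK cell-like cells numbered 6 and 3 in the female lanes with 1868 and 1861 cells and 10 and 8 in the male lanes with 2047 and 2085 cells. These were 0.321%, 0.161%, 0.489% and 0.384% of the lanes, so both male lanes stood above both female lanes. Summed over lanes, the females had 9 NK cell-like cells (0.241% of all their cells, with a 95% interval from 0.110% to 0.458%). The males had 18 (0.436%, from 0.258% to 0.688%), and the intervals overlapped. Monocyte-like cells numbered 9, 3, 5 and 1 in the same order, T cell-like cells 2, 2, 1 and 7, and conventional dendritic cell-like cells 6, 0, 4 and 1, and for each of these the lanes of the sexes overlapped. The 0 of 1861 cells in the second female lane allows a share of up to 0.161% by the limit of 3 counts, and the exact 95% interval reaches 0.198%. Plasmacytoid dendritic cell-like cells numbered 2, 2, 2 and 1. With 2 lanes per sex an exact permutation test cannot give a two-sided p below 0.333, and no other test of these shares was made.

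**Figure D3:**
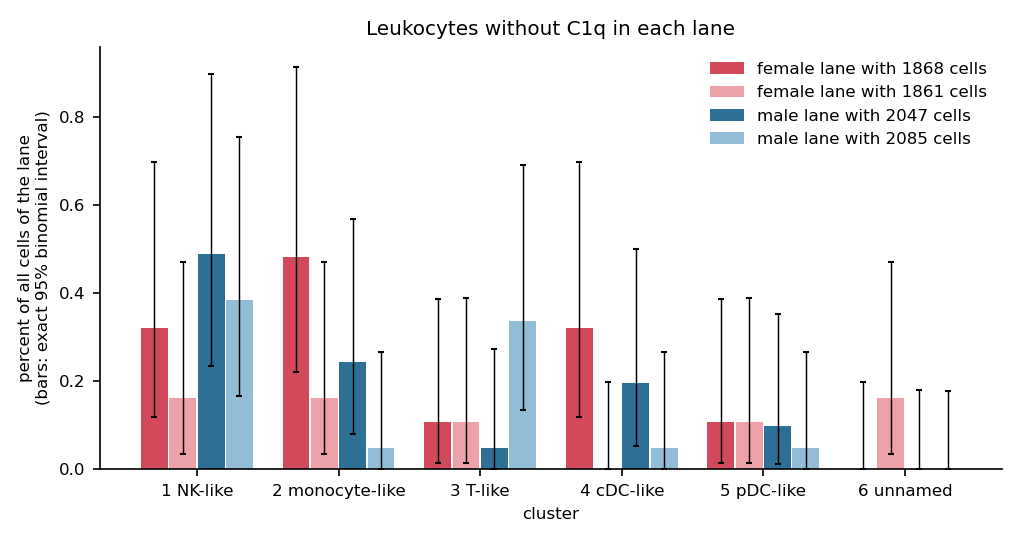
Bars give the cells of each cluster as a percent of all cells of a lane, for the 2 female lanes (red) and the 2 male lanes (blue), and the thin lines are exact 95% binomial intervals. NK cell-like cells range from 0.161% to 0.489% with overlapping intervals, and the unnamed cluster appears in the female lane with 1861 cells only.

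Cell cycle genes were found together in a few of the cells. At least 5 of 13 cycling genes were detected in 6 of the 78 cells (7.69%), 4 of them NK cell-like, 1 monocyte-like and 1 conventional dendritic cell-like. The share was 2.40% of the macrophages, and the difference was not tested. By lane these were 1 and 0 in females and 4 and 1 in males. The proliferation gene Mki67 was found in 3 of the 27 NK cell-like cells and Top2a in 4.

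The leukocytes without C1q were next compared with the macrophages with C1q of the same lanes, to find which genes outside the rule set the classes apart. UMIs were summed per lane and class and tested with the quasi-likelihood test of edgeR, with the lane as a block and p-values adjusted by Benjamini-Hochberg. A gene was called at an adjusted p below 0.001. A gene absent or nearly absent from 1 class passed the filter on low counts only through the class where it was high. Its direction was thus set by being tested. For genes with no UMI or 1 UMI in a class no p-value is given below. The counts and medians over tested list genes given below are descriptions. Of 4864 genes tested, 226 (4.65%) were called, 122 (2.51%) higher without C1q and 104 (2.14%) higher with C1q, and the median log2 fold change over all tested genes was 0.04. The cells were split by the UMIs of 3 C1q genes, so a difference in a gene that goes along with C1q may follow in part from the split. Leaving out a lane lowered the number of called genes to 122 without the female lane with 1868 cells, 177 without that with 1861, and 107 without either male lane. Without the unnamed cluster, 328 genes were called, and without the cells with markers of other types 456, of which 226 were higher and 230 lower without C1q.

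The 12 genes furthest above the macrophages were Slpi, Xcl1, Siglech, Nkg7, Gzma, Il2rb, Cd3g, Mcpt9, Ctsw, Gzmb, Prf1 and Cd3e. All but Nkg7 had no UMI in the 541 macrophages, for which the limit of 3 UMIs over the group is 0.785 CPM, and so entered the test only through the leukocytes without C1q. The lanes are given as female with 1868 and 1861 cells, then male with 2047 and 2085 cells. Slpi stood at 3466, 68.4, 1770 and 1558 CPM in this order, which is at least 2297-fold higher over the group. The second female lane, in which no conventional dendritic cell-like cell was found, was far below the other 3. Xcl1 stood at 666, 137, 621 and 1155 CPM, at least 814-fold higher, and Siglech at 659, 677, 523 and 356 CPM, at least 711-fold higher. Siglech thus varied the least among these 3 genes. Nkg7 stood at 509, 639, 866 and 1131 CPM with 467 UMIs against 1 UMI in the macrophages. The ratio was 2972 with a counting interval from 531 to 117619. Il2rb, a subunit of the receptor for interleukin 2 and interleukin 15, stood at 226, 137, 305 and 198 CPM, at least 286-fold higher. Cd3e stood at 25.1, 159.7, 70.8 and 309 CPM, at least 163-fold higher, and its 2 highest lanes belonged to different sexes.

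**Figure D4:**
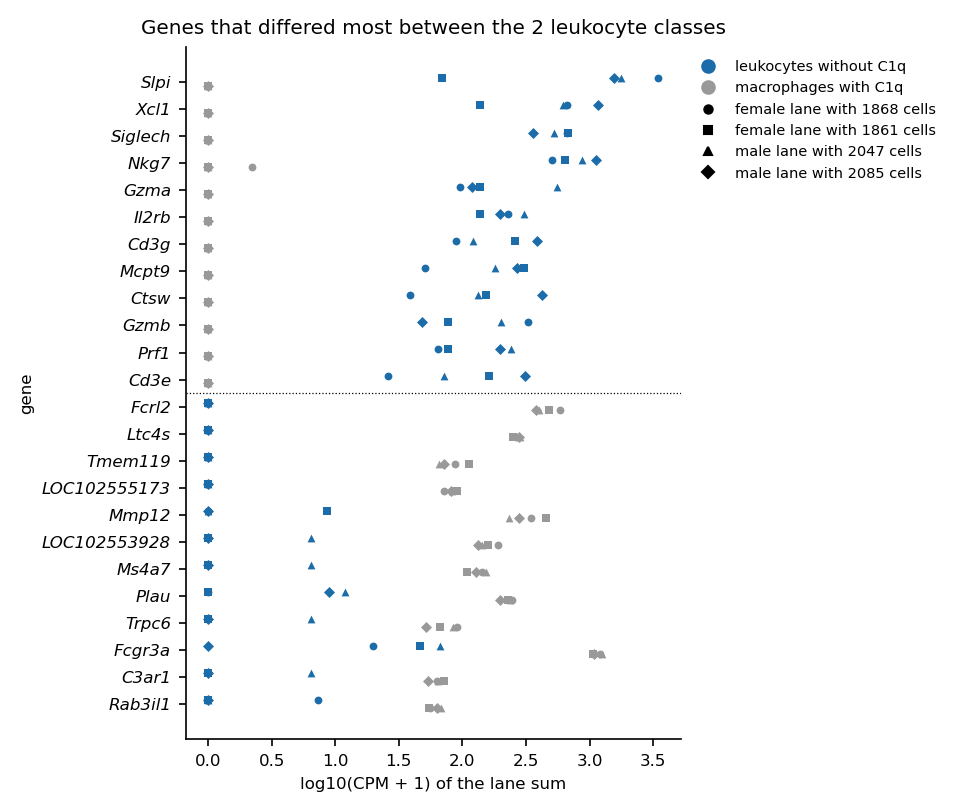
Each row is a gene, the 12 above the dotted line higher in leukocytes without C1q and the 12 below it higher in macrophages with C1q, and each point is the sum of 1 lane as log10(CPM + 1) in the leukocytes without C1q (blue) or the macrophages (grey), with a symbol for each lane. The classes do not overlap in any of the 24 genes, which were chosen for large changes alike in every lane. Slpi in the female lane with 1861 cells (68.4 CPM) is the lowest blue square of its row.

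The 12 genes furthest below the macrophages were Fcrl2, Ltc4s, Tmem119, LOC102555173, Mmp12, LOC102553928, Ms4a7, Plau, Trpc6, Fcgr3a, C3ar1 and Rab3il1. Fcrl2, an Fc receptor-like gene, had no UMI in the 78 cells, for which the limit of 3 UMIs is 4.99 CPM. It stood at 581, 477, 397 and 376 CPM in the macrophages, at least 90.6-fold higher there. Ltc4s, the synthase of leukotriene C4, was likewise at 0 against 269 ± 16.0 CPM (SD, n = 4 lanes), at least 53.9-fold. Tmem119, which also marks microglia, was at 0 against 83.1 ± 20.5 CPM. Fcrl2, Ltc4s, Tmem119 and LOC102555173, all at 0 in the 78 cells, entered the test only through the macrophages. Mmp12, which encodes macrophage elastase, had 1 UMI in the 78 cells and 1243 in the macrophages, a ratio of 195 with a counting interval from 35.0 to 7722. Fcgr3a stood at 18.8, 45.6, 65.4 and 0 CPM without C1q and at 1204, 1072, 1258 and 1085 CPM with C1q (log2 fold change -5.29 ± 0.44 SE). Fcgr3a too passed the filter on low counts only through the macrophages, so no p-value is given for it. Plau, the urokinase-type plasminogen activator, and C3ar1, the receptor for the complement fragment C3a, had 3 and 1 UMIs in the 78 cells. With a lane left out, Tmem119, LOC102555173, Trpc6, C3ar1 and Rab3il1 no longer passed the threshold, whichever lane it was, and Ms4a7 did not without the male lane with 2047 cells. Tmem119 and LOC102555173 were also not called with library sizes alone, nor LOC102555173 with fewer than 2 C1q UMIs as the limit.

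Of 18 genes listed for T cells, 11 could be tested, and 9 were higher without C1q (Cd3e, Cd3d, Cd3g, Cd247, Cd2, Lat, Lck, Skap1 and Cd8a), with a median log2 fold change of 6.48 against 0.04 over all tested genes. Without the filter on low counts 17 were tested, 10 were higher and 2 lower, against 249 and 544 of 17127 genes over all. The median was then 5.54 against -0.39 over all genes. Cd4 went the other way, at 103 CPM against 628 CPM (log2 fold change -2.77 ± 0.28, edgeR adjusted p = 8.53e-05). Rat macrophages are known to carry CD4. Of 19 NK cell genes, 14 were tested and 11 were higher, and of 14 cytotoxic granule genes, 10 were tested and 8 were higher. Of these tested genes, 6 and 5 were at 0 in 1 class. Without the filter 15 of 19 NK cell genes and 9 of 10 granule genes were higher, against 249 of 17127 genes over all. The median log2 fold change of the granule genes was 9.04, or 7.46 with the 5 genes absent from 1 class set at their bounds. Over the 4 lanes left out in turn, 8 to 9 T cell genes, 10 to 12 NK cell genes and 7 to 8 granule genes were called. Of the genes that killer cells secrete, Ccl5, a chemokine that draws T cells, stood at 640.5, 1125, 3562 and 2785 CPM without C1q. With C1q it stood at 1.21, 10.2, 20.3 and 7.55 CPM (log2 fold change 7.53 ± 0.33 SE). Ccl5 passed the filter on low counts only through the leukocytes without C1q, so no p-value is given for it. Interferon gamma (Ifng) had 18 UMIs in 6 of the 78 cells and none in the macrophages, at least 38.2-fold higher, and was not among the genes tested.

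Of 21 phagocytosis and lysosome genes, 19 were tested and 8 were lower without C1q, Ctsb, Ctss, Lgmn, Npc2, Axl, Msr1 and Lyz2 among them, while none was higher, with a median log2 fold change of -2.62. Npc2, a cholesterol carrier of the lysosome, stood at 226, 220.5, 327 and 174 CPM against 3508, 3180, 2869 and 3233 CPM (log2 fold change -3.89 ± 0.21, edgeR adjusted p = 3.08e-06). Lgmn, a lysosomal protease, stood at 56.5, 38.0, 43.6 and 23.7 CPM against 733, 593, 629 and 599.8 CPM. Neither gene's classes overlapped in any lane. Of 19 macrophage genes, 13 were tested and 7 were lower, Csf1r, Trem2, Folr2 and Aif1 among them, and Maf, a transcription factor of macrophages, was lower too. Without the female lanes with 1868 and 1861 cells and the male lanes with 2047 and 2085 cells in turn, the phagocytosis list had 7, 9, 5 and 6 lower genes, and the macrophage list had 5, 7, 3 and 5. Of 14 complement factors in the table, C2 and C3 were lower and 5 other tested genes were not called. Neither was called without either male lane, and only 1 was called without the female lane with 1868 cells. By cluster the phagocytosis list summed to 22731 CPM in monocyte-like cells, of which Lyz2 made 15950 CPM, to 11784 CPM in plasmacytoid dendritic cell-like, 6771 CPM in conventional dendritic cell-like, 1151 CPM in NK cell-like and 873 CPM in T cell-like cells. The same sum averaged 32347 CPM over the macrophages.

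The S100 genes had another pattern. All 4 members that could be tested, S100a4, S100a6, S100a10 and S100a11, were higher without C1q, and S100a8 and S100a9, the granule proteins of neutrophils, were at 0. S100a6, a calcium-binding protein, stood at 1061, 555, 964 and 902 CPM against 24.2, 24.4, 59.9 and 43.2 CPM in the macrophages (log2 fold change 4.42 ± 0.26, edgeR adjusted p = 4.98e-06). S100a10, the partner of annexin A2, stood at 1237, 578, 729.8 and 1187 CPM against 35.1, 40.7, 58.1 and 36.7 CPM (log2 fold change 4.26 ± 0.30, edgeR adjusted p = 1.24e-05). Lane by lane, the classes were far apart in both. The genes were not bound to 1 kind of cell: S100a10 was found in 26 of 27 NK cell-like, 18 of 18 monocyte-like, 12 of 12 T cell-like, 10 of 11 conventional dendritic cell-like and 7 of 7 plasmacytoid dendritic cell-like cells. It was found in 72 of 541 macrophages and in 50.9% of the other pituitary cells, whose mean of 179 CPM lay between the classes. S100a6 was found in 17 of 18 monocyte-like cells and in none of the dendritic cell-like cells. Without the male lane with 2085 cells 3 of the 4 were called, and without any other lane all 4.

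MHC class II genes split the 78 cells. The 16 listed genes summed to a mean of 64049 CPM in conventional dendritic cell-like cells (lowest cell 12522, median 59259, highest 104594), 35836 CPM in monocyte-like cells (206, 31324 and 115278) and 20350 CPM in plasmacytoid dendritic cell-like cells (9275, 17982 and 30129). In NK cell-like and T cell-like cells they summed to 231 and 238 CPM. The macrophages averaged 60463 CPM (785, 59766 and 132856), so the ranges of the dendritic cell-like cells lay inside theirs. In the comparison of the classes as a whole 11 class II genes were tested and Ctss, a protease that cuts the invariant chain, was the only one called. At an edgeR adjusted p below 0.05, 7 were lower without C1q, against 497 of 4864 genes over all. Without the filter on low counts 8 of 14 were called lower, against 544 of 17127 genes over all. Without cells with markers of other types 4 of 11 were called lower, against 230 of 4383. Cd74 stood at 15058, 3710, 14345 and 4834 CPM without C1q and at 23503, 26433, 29148 and 31835 CPM with C1q (log2 fold change -1.93 ± 0.37, edgeR adjusted p = 0.00453), short of the threshold. Reads of the closely related class I genes may be split between them. Class I transcripts were found in every kind of cell: B2m, the light chain of class I molecules, was detected in 78 of 78 cells, and of 15 class I genes tested only RT1-A1 was called, lower without C1q (log2 fold change -1.46 ± 0.18, edgeR adjusted p = 2.87e-04). It was called without the female lane with 1861 cells but not without any of the other 3.

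**Figure D5:**
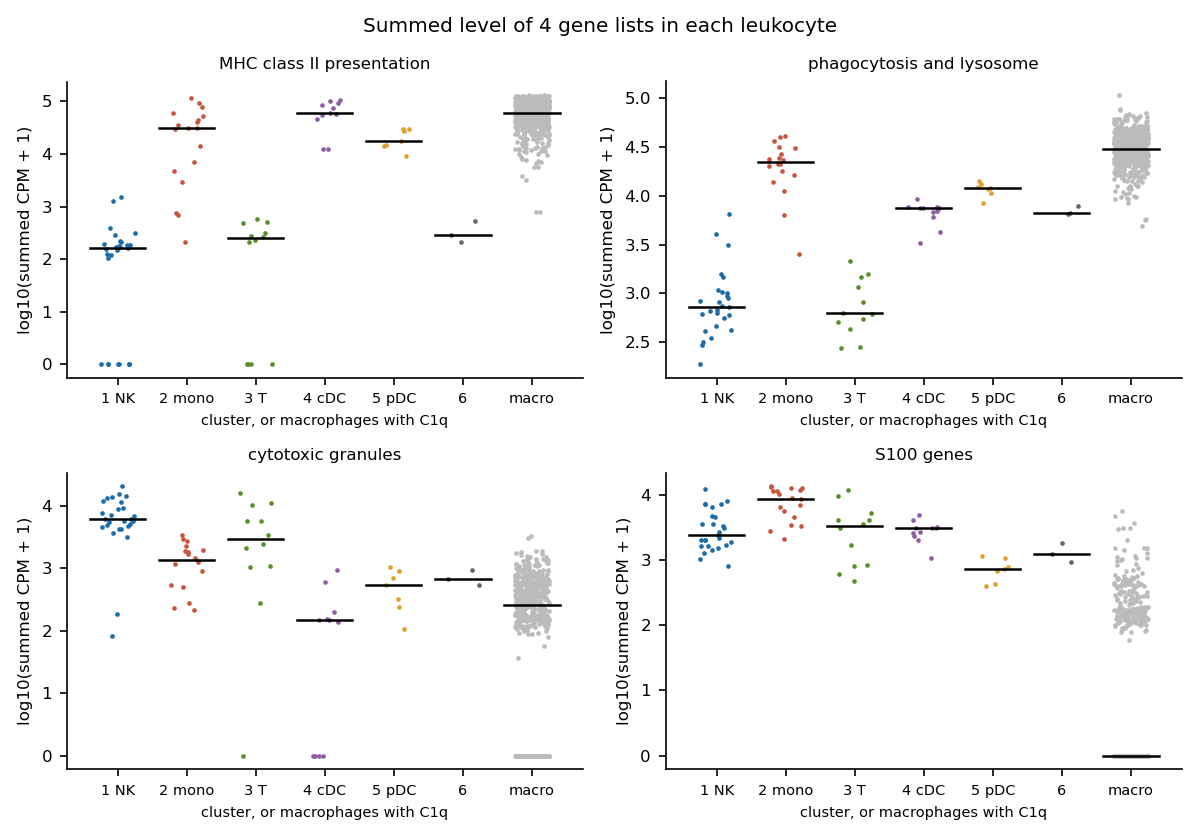
Each point is 1 cell and the black bars are medians. The 4 panels give, as log10(summed CPM + 1), the MHC class II, phagocytosis and lysosome, cytotoxic granule and S100 lists for the 6 clusters and, in grey, for the 541 macrophages. The class II panel sets the monocyte-like and both dendritic cell-like clusters (medians of 31324, 59259 and 17982 CPM) apart from the NK cell-like and T cell-like ones (163 and 247 CPM), and the S100 median of the macrophages is 0.

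Chemokine, cytokine and homing genes differed by member. Of 29 chemokines and cytokines, 15 were tested: Ccl5 and Xcl1 were higher without C1q, and Ccl6 and Cxcl16 were lower. Cxcl16, at 98.9 CPM against 713 CPM, had a log2 fold change of -3.06 ± 0.28 (edgeR adjusted p = 5.14e-05). Among 31 receptors, 14 were tested; Ccr7, Cxcr3, Il2rb and Il2rg were higher and Cx3cr1, Il10ra and Csf1r lower. Ccr7 stood at 176, 45.6, 158 and 189.9 CPM, with 87 UMIs against 2 in the macrophages, and its cells were T cell-like (4), conventional dendritic cell-like (2) and plasmacytoid dendritic cell-like (4). Of 16 adhesion and homing genes, 10 were tested and 4 were higher, Itgb7, Cd44 and Cd69 among them. Itgb7, an integrin subunit of gut-homing lymphocytes, stood at 132, 83.6, 65.4 and 94.9 CPM, with 56 UMIs against 3 in the macrophages, a ratio of 119 with a counting interval from 38.6 to 593. Only 1 of the 4 homing genes was called without the male lane with 2085 cells, 2 without the male lane with 2047 cells or the female lane with 1868 cells, and 4 without the female lane with 1861 cells. The 14 interferon response genes tested had a median log2 fold change of -0.55. The most abundant of them, Ifi27, stood at 1241 CPM without and 1028 CPM with C1q (log2 fold change 0.09 ± 0.19).

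The sexes were then compared within the 78 cells, on the 4 lane sums. The Y-linked gene Eif2s3y, which checks the assignment of the lanes, was found in 11 of 22 and 4 of 18 cells of the male lanes and in none of the 25 and 13 cells of the female lanes. Over all cells of a lane Kdm5d, also Y-linked, had 0 and 0 UMIs in the female lanes and 228 and 264 in the male lanes, but none in the 78 cells. Ddx3y had 10 and 8 UMIs in the female lanes and 11 and 14 in the male lanes, and did not tell the sexes apart. Of 2023 genes tested, none was called (0%), and the smallest adjusted p of the edgeR test was 0.439. At an unadjusted p below 0.05 there were 89 genes, and DESeq2 called none at the same threshold and 1 at an adjusted p below 0.05. A p that misses the threshold does not show that the sexes were alike. Among the listed genes with the lowest p-values, Ccl5 stood at 640.5 and 1125 CPM in females and at 3562 and 2785 CPM in males (log2 fold change male over female 1.84 ± 0.33, edgeR adjusted p = 0.488). The interferon regulator Irf7 stood at 232 and 198 CPM in females and at 43.6 and 31.6 CPM in males (-2.47 ± 0.41, edgeR adjusted p = 0.439). The monocyte chemoattractant Ccl2 stood at 427 and 532 CPM in females and at 38.1 and 87.0 CPM in males (-2.98 ± 0.46, edgeR adjusted p = 0.439). None of the 3 passed the threshold. The 4 lanes differed in their cluster make-up, as given above, and the part of this make-up in such values was not tested.

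Whether the sex difference itself differed between the leukocytes without C1q and the macrophages was tested by the interaction of class and sex on the 8 lane sums. Of 6249 genes tested, edgeR called none (0%), with 191 at an unadjusted p below 0.05 and none called by DESeq2. With a lane left out 0 to 45 genes were called here, and 0 to 95 in the comparison of the sexes within the 78 cells, the highest numbers in both without the female lane with 1868 cells, where the lone female lane is the one that holds the unnamed cluster and is assumed to vary like the male lanes.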

How the data were processed

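Counts of UMIs per gene and cell were deposited by the authors in 1 table, made with Cell Ranger 2.1 per the labels, with the 4 lanes combined by its aggregation step, which per the study equalizes mapped reads between lanes, and with no further scaling. The table lists 30058 genes and 7861 cells. The barcode suffix gives the lane, and a lane's sex was taken from its cell number, which the study gives for each lane. The member cells and the gene lists were chosen with earlier results of these data known.

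UMIs were summed per lane and class and tested with edgeR 4.0.16 (R 4.3.3, TMM factors, filterByExpr with a minimum count of 10, quasi-likelihood test, two-sided), and DESeq2 1.42.0 was an alternative. Depths per lane and class stood between 126404 and 1085003 UMIs. The script was tested on simulated data with 200 changed genes per fold. SE is the log2 fold change over the square root of F. CPM are counts per 1000000 of a lane sum, or of a cell where a cluster's mean is given. Called genes were named if changed the same way in every lane and at 50 CPM or more in the higher class, the 12 largest each way. Listed genes could be named whatever their values.

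Cells were clustered with scanpy 1.11.5 (2000 variable genes, 20 components, 15 neighbours, resolution 1.00). Leading genes are the 10 with the highest ratio of mean CPM over the other member cells, among genes in at least 20% of a cluster's cells. Every named cluster had at least 3 detected markers of its type. That number alone did not decide a name: 14 T cell genes were detected in the NK cell-like cluster and 10 endothelial genes in the unnamed one. Scrublet was run per lane and no cell was removed for it. Intervals are Clopper-Pearson and cover counting error only, and the limit for a count of 0 is 3 counts. No gene position and no sequence is given. Some listed genes are counted but not reported here by name.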

Additional observations from a re-analysis of the deposited data

How the results depend on the processing

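The limits on C1q, leukocyte genes and hormones moved the number of leukocytes without C1q only between 71 and 83, around 78. The clusters numbered 6, and 3 at the lower resolution, 8 at the higher one, 5 with cells thinned to 1000 UMIs and 4 without rule, ribosomal and mitochondrial genes. Between the classes, 226 genes were called, and 910 at an adjusted p below 0.05, 342 with DESeq2, 793 without a filter on low counts and 456 without cells that held markers of other types. All 226 were among the genes DESeq2 called. Leaving out a lane gave 107 to 177. With library sizes alone the median log2 fold change over the tested genes moved from 0.04 to 0.16, and 122 genes were higher and 71 lower without C1q, against 122 and 104. None of the 24 named genes turned its direction in any of the 13 alternatives. They were chosen for large changes alike in every lane, and those with 0 UMIs in 1 class could not turn. This is therefore no measure of stability. For the sex difference within the 78 cells, 0 genes were called, 50 without the filter, and 0 to 95 with a lane left out. For the interaction, 0 genes were called, 3 without the filter, 1 without cells with markers of other types, and 0 to 45 with a lane left out. An alternative added after seeing the data, without the 3 cells of the unnamed cluster, gave 328 genes between the classes, 0 for the sexes and 4 for the interaction. The causes of these shifts were not tested. Where a lane was left out of the comparison of the sexes, the lone lane was assumed to vary like the others. No paired analysis was possible because the replicate numbers of the labels could not be matched to the lanes; the comparison of the classes has the lane itself as its block. With 78 cells, a class of cells seen in none of them may still be present at a low share.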
